A study of Drosophila melanogaster with 2 samples.

Results

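The locus of cbt and ush on chromosome 2L was described from chromatin immunoprecipitation sequencing (ChIP-seq) with embryos of Drosophila melanogaster, in which the tagged protein cato, a bHLH transcription factor related to atonal, was precipitated. The members are the 2 genes cbt and ush, out of 13986 annotated protein-coding genes, together with all deposited peaks that lie in either gene or within 10 kb of it. They were picked on measured values: the locus holds the second strongest peak of the series and ush holds many peaks. The signal values and the peak counts at the locus are therefore given as a description, with no test. The study had 1 condition with 2 biological replicates, numbered 1 and 3: embryos of both sexes, aged 0 to 16 h, of a transgenic line that stably expresses cato with GFP at its C terminus. Chromatin was sheared to 200 to 800 bp, and GFP was the target of the antibody. No second condition, input library or precipitate of an untagged line was analysed here, and a whole embryo does not show which cells a peak comes from.

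The gene ush (u-shaped) encodes a multi-zinc-finger protein of the FOG family, which binds GATA transcription factors such as Pannier and Serpent and modulates their activity. It is known for roles in the amnioserosa and germ band retraction, in heart and blood cell formation and in the patterning of thoracic bristles. The gene cbt (cabut) encodes a zinc finger transcription factor of the TIEG type, known for dorsal closure of the embryo and for the transcriptional response to dietary sugar. The protein precipitated here, cato, is expressed in developing sense organs and belongs to a family that binds the E-box, a short sequence of the form CANNTG.

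On dm6, the build of the peak lists used, ush (FBgn0003963) runs on the plus strand of chromosome 2L from 476220 to 540560, a length of 64.3 kb, and cbt (FBgn0043364) on the minus strand from 476446 to 479688. The whole of cbt thus lies in the first intron of the longest ush transcripts, in the opposite orientation. The annotation gives ush start sites at 476220, 490835, 523466 and 523736, and cbt a single start site at 479688. With 10 kb on either side the span ran from 466220 to 550560. Peaks came from 4 deposited lists: the list that passed the authors' threshold on the irreproducible discovery rate (IDR, a measure of how reproducibly peaks rank between replicates), a list for each replicate and a list named as pooled. The IDR list placed 13 of its 2746 peaks in the span. The full lists, each of 30000 peaks with weak ones included, placed 37 there in replicate 1, 46 in replicate 3 and 35 in the pooled list. Each list has its own scale, so the replicates are compared by rank and no mean or SD over them is given. The read depth behind the values is unknown, and the pair of replicates is the only measure of error.

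The sequences below, from RefSeq, are the plus strand of the summit of a peak, its position of highest signal, with 50 bp on either side. The first pair lies between cbt and the second start site of ush and holds the strongest peaks of the locus. The other windows are intronic ush peaks that hold matches to an E-box or to a GATA site, the sequence bound by the factors that the ush protein partners. Capitals mark these matches.
Strongest peak, chr2L:481018-481118: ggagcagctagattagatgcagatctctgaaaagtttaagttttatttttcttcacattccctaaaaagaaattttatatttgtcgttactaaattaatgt
Peak upstream of cbt, chr2L:480022-480122: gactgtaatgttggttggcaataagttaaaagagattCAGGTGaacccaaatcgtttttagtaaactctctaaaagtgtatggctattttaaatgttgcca
Peak 34.5 kb into ush, chr2L:510637-510737: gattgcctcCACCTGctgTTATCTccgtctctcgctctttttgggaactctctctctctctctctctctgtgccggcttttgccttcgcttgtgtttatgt
Peak 44.6 kb into ush, chr2L:520766-520866: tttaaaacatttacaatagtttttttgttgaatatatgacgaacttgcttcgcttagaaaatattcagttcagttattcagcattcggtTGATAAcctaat
Peak 45.9 kb into ush, chr2L:522055-522155: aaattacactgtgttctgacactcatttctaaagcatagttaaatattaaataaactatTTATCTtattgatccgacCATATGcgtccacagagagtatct

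The strongest peak of the locus lay in the first ush intron, upstream of cbt. It ran from 480895 to 481253, with its summit 1380 bp upstream of the cbt start site and 4.85 kb downstream of the first ush start site. Its deposited signal value, a number in units set by the authors' software and comparable only within a list, was 1082.3 in the IDR list, where the highest was 1099.8. In replicate 1 the region had a signal value of 327.1 and ranked 2, and in replicate 3 it had 572.5 and ranked 1. The pooled list also placed it at rank 1, with 182.6. The same base-pair region therefore led or nearly led every list, and the replicate summits fell 15 and 5 bp to the right of the IDR summit. Within the locus the peak stood apart from the rest: its signal value was 3.61 times that of the next locus peak in replicate 1 and 3.86 times in replicate 3.

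The next strongest peak was the one nearest to the cbt promoter. In the IDR list it was narrow, from 479976 to 480134, and its summit was 384 bp upstream of the cbt start site. The replicate 3 peak was narrow as well, from 479983 to 480135. Those of replicate 1 (479908 to 480287) and the pooled list (479866 to 480245) were wider. The signal value was 281.6 in the IDR list, at rank 169, and the replicates gave 90.6 at rank 180 and 148.4 at rank 171. The ranks in replicates 1 and 3 were thus close to each other, and the pooled list gave a like rank of 157. Both peaks upstream of cbt are also intronic in ush, so position alone assigns them to neither gene. In the IDR list 90.8% of peaks were 404 bp wide. These were the 2 exceptions at the locus, at 159 and 359 bp.

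The cbt gene body itself held 0 IDR summits. Each full list placed 1 peak there, weak in both replicates, and the positions differed. In replicate 1 it ran from 477878 to 478257 (signal value 11.2, rank 11043), in replicate 3 from 479127 to 479536 (23.7, rank 5426) and in the pooled list from 479303 to 479682 (24.1, rank 901). The peaks of replicate 3 and of the pooled list overlapped at the 5' end of cbt, and that of replicate 1 did not reach them.

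**Figure D1:**
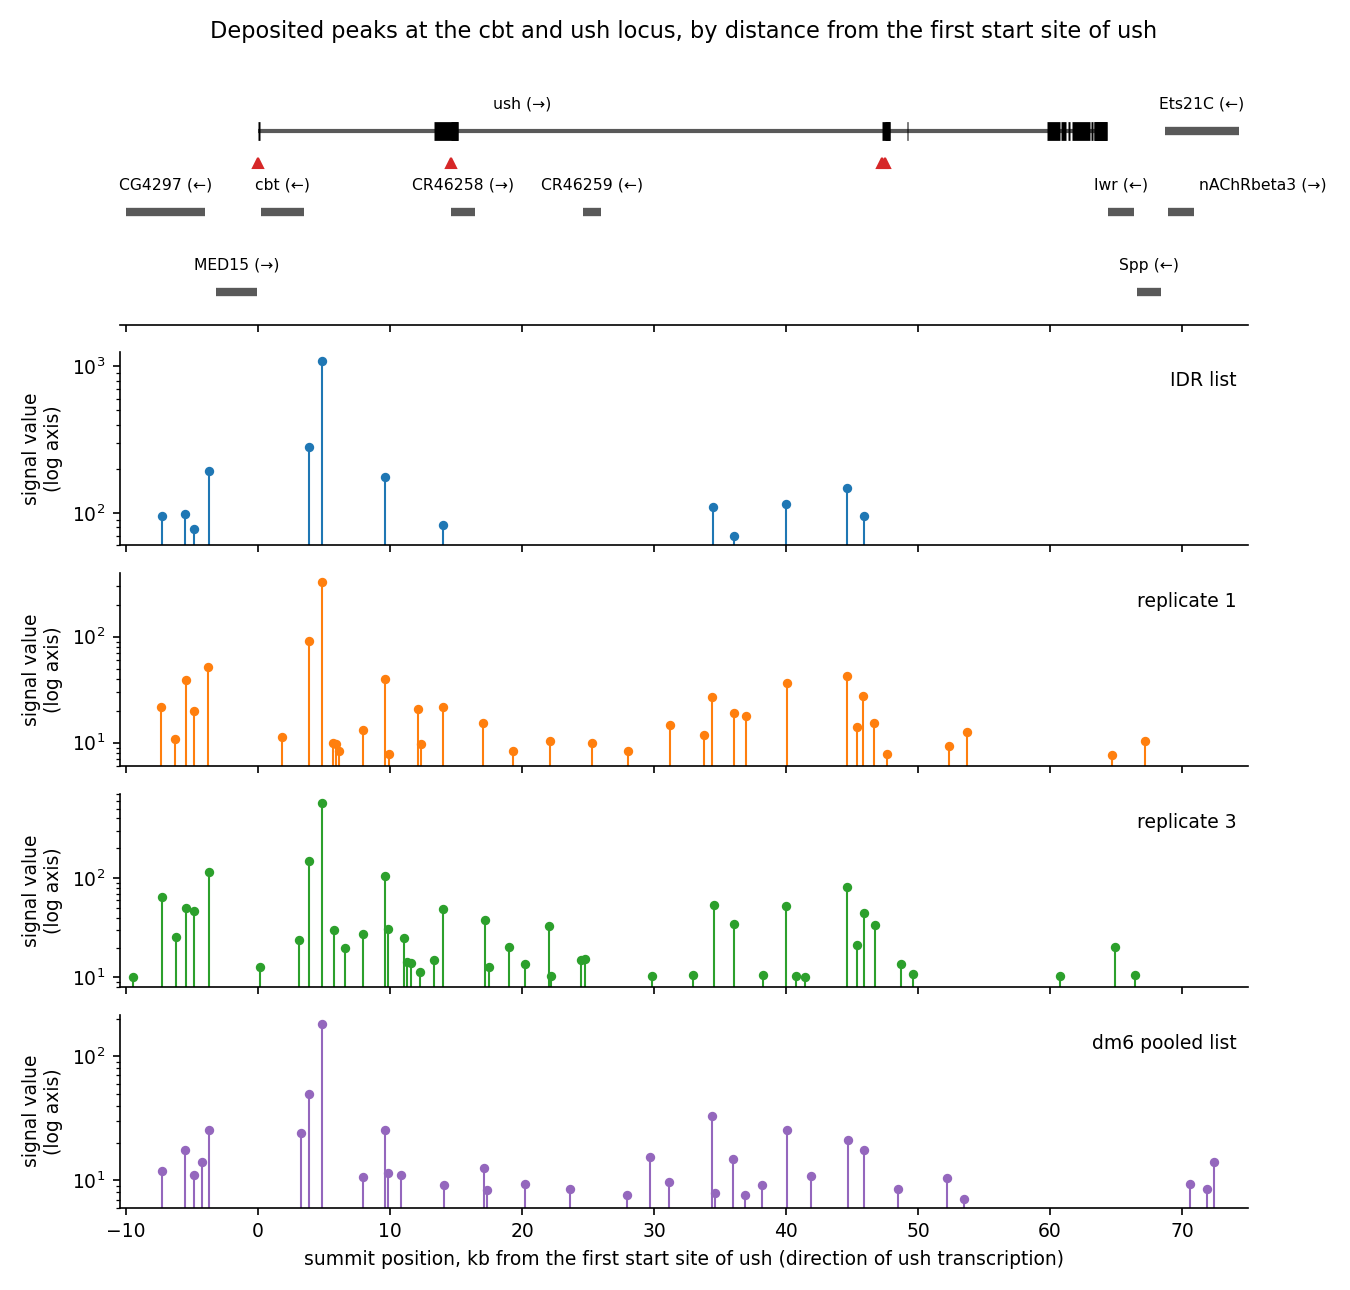
Gene models of the span (top; ush exons as black boxes, its start sites as red triangles, arrows for strand) and the signal values of the deposited peaks by summit position in kb from the first ush start site, for the IDR list, replicate 1, replicate 3 and the dm6 pooled list (signal value on log axes, 1 point per peak). The tallest point in each panel is the peak 4.85 kb into ush, and no IDR peak lies beyond 45.9 kb.

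The ush gene held 9 IDR summits, of which 8 were in introns and in no exon. The ninth, from 490057 to 490460, was in an untranslated part of an exon that 1 transcript uses, 576 bp upstream of the start site at 490835. It was among the weaker peaks, with 83.1 in the IDR list, 21.9 at rank 2756 in replicate 1 and 49.1 at rank 1699 in replicate 3. Introns held 11 of the 13 summits of the locus, and over the whole IDR list 44.6% of summits lay in an intron and in no exon. Within 500 bp of an annotated start site were 3 of the 13 locus summits, where the whole list has 54.8%. These 3 were the peak upstream of cbt and a pair at the start sites of CG4297. Most of the span is the long gene ush. The share of the span that is intron was not computed, so neither count can be read as a trait of the peaks.

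Most of the ush start sites had weak peaks or none close by. Within 1000 bp of the first, at 476220, the replicate 3 list alone had a summit (signal value 12.7, rank 19210). Near the start sites at 523466 and 523736 the strongest peak from either replicate was the same region, with 15.3 at rank 5238 in replicate 1 and 33.8 at rank 3038 in replicate 3. Its summits were 595 and 480 bp upstream of the start site at 523466, and the region is not in the IDR list. The start site at 490835 was the only one of ush with an IDR summit within 1000 bp.

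Inside ush the IDR peaks fell into a group at the 5' end and a group before the third start site. The 14.6 kb between the first and second start sites held 4 summits, and the 32.6 kb from the second to the third held 5. The last 17.1 kb of the gene, from the start site at 523466 to the end, held 0. Nearly all of the coding sequence lies in that last stretch. Weak peaks did occur there, 3 in each full list, and the best ranked 8315 in replicate 1, 16547 in replicate 3 and 10131 in the pooled list.

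The 5' group comprised the pair upstream of cbt, the exonic peak and a peak 9.64 kb into the gene. The last of these, from 485656 to 486059, had signal values of 175.2 in the IDR list, 40.3 at rank 1010 in replicate 1 and 104.4 at rank 373 in replicate 3. Between this group and the next lay 20.4 kb with no IDR summit, which was not empty in the full lists: replicate 1 had 7 summits there, replicate 3 had 10 and the pooled list 7.

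The second group held 5 intronic peaks between 34.5 and 45.9 kb into ush. The strongest of them, from 520614 to 521017, had 147.9 in the IDR list, with 42.4 at rank 900 in replicate 1 and 82.0 at rank 602 in replicate 3. The peak from 516044 to 516447 had 115.5 (rank 1202 in replicate 1, rank 1529 in replicate 3), and the one from 510485 to 510888 had 110.5 (ranks 1965 and 1470). The peak closest to the third start site, from 521903 to 522306, was 1361 bp upstream of it and had 95.7, with rank 1923 in replicate 1 and rank 1980 in replicate 3. All 4 ranked among the 2746 strongest of both replicates. The weakest peak of the locus, from 512041 to 512444, had 70.0, close to the lowest value of the IDR list, 68.9, and ranked 3442 and 2947. The pooled list ranked the 510485 peak at 450, ahead of the other 4.

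The span reached beyond ush on its 5' side and took in 4 IDR peaks at CG4297 and MED15, which encodes a subunit of the Mediator complex. The strongest, from 472324 to 472727, lay between the divergent start sites of these genes, 326 bp upstream of that of CG4297, and had 194.3 in the IDR list, 51.9 at rank 602 in replicate 1 and 115.2 at rank 294 in replicate 3. The other 3 were in CG4297 introns, with IDR signal values of 77.9, 94.7 and 97.7. On the 3' side, lwr (the SUMO-conjugating enzyme Ubc9), Spp (signal peptide peptidase), Ets21C (an ETS-family transcription factor) and nAChRbeta3 (a nicotinic acetylcholine receptor subunit) together had 0 IDR summits. The pooled list alone had 3 peaks at Ets21C and nAChRbeta3, the strongest from 548469 to 548848 (13.97, rank 3882), and neither replicate list had a peak that overlapped them. In lwr the replicate lists shared a peak, with 7.67 at rank 27487 in replicate 1 and 20.4 at rank 7108 in replicate 3. Replicate 1 also had a peak in Spp (10.4, rank 13502) that replicate 3 lacked. The non-coding genes lncRNA:CR46258 and lncRNA:CR46259, which lie within ush, also had 0. The nearest IDR peaks outside the span ended 33.9 kb before ush (signal value 145.4) and began 27.4 kb after it (79.9), so the choice of 10 kb left out no peak lying close to the border.

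The replicates were compared at the IDR peaks of the locus by summit position and by rank. Each of the 13 IDR peaks overlapped a peak of each replicate list. The replicate summits were at most 86 bp from the IDR summit in replicate 1 and 37 bp in replicate 3. The IDR procedure matches peaks between replicates, so this overlap was largely set in advance. It was also found for 2728 IDR peaks outside the locus. Of the 13, 10 overlapped one of the 2746 strongest peaks of both replicates, a share near the 75.7% of the whole IDR list. The other 3 ranked 2756, 3232 and 3442 in replicate 1, past that limit. The last of them was past it in replicate 3 as well, at rank 2947. The rank number was higher, meaning weaker, in replicate 1 for 10 of the 13 peaks. That count was not made over the whole IDR list, so it cannot be read as particular to the locus. Across these 13 peaks the ranks in the replicates had a Spearman rho of 0.86, which is a description: the IDR procedure selects on agreement of ranks, and the peaks share their libraries.

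**Figure D2:**
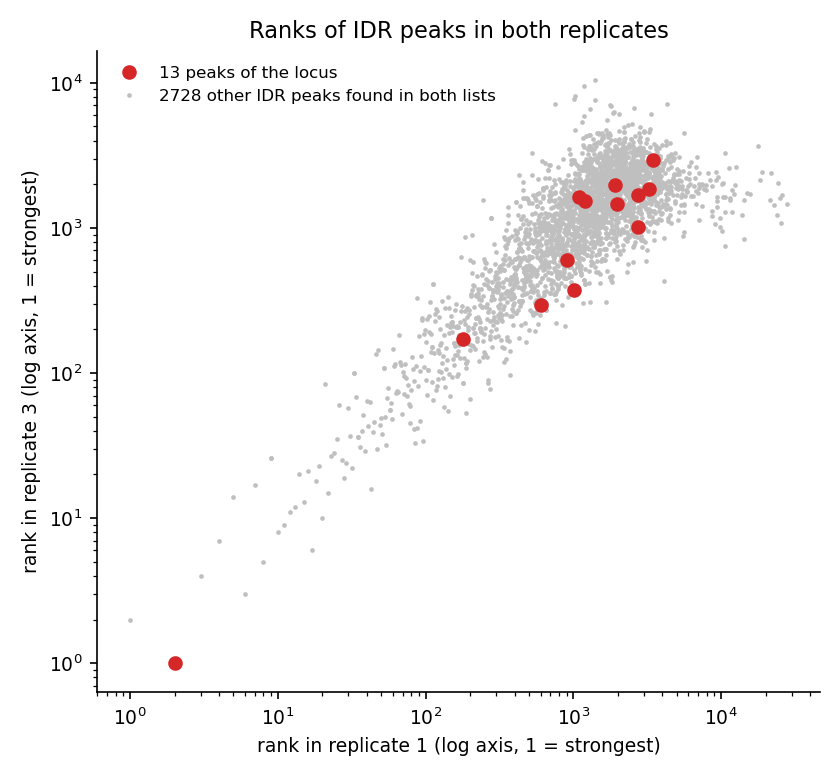
Rank of each IDR peak in replicate 1 (horizontal) and in replicate 3 (vertical), both on log axes with 1 the strongest, for the 13 peaks of the locus (red) and 2728 other IDR peaks found in both lists (grey). The strongest locus peak sits in the lower left corner at ranks 2 and 1, the peak upstream of cbt at 180 and 171, and the other 11 lie among the bulk of the list.

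Weaker peaks of the locus were shared between the replicates in part. Of all 37 peaks of replicate 1 in the span, 26, or 70.3%, overlapped a peak of replicate 3, and over the whole replicate 1 list the share was 44.8%. Of the 46 peaks of replicate 3, 25, or 54.3%, overlapped one of replicate 1, and over the whole replicate 3 list 46.8% did. Each of these counts includes 14 peaks that overlap an IDR peak, all of them shared. Without peaks that overlap an IDR peak, 12 of 23 locus peaks of replicate 1 (52.2%) were shared, and 38.4% over the whole list. For replicate 3 they were 11 of 32 (34.4%), and 40.1% over the whole list. The locus share was thus above that of the list in replicate 1 and below it in replicate 3. Among the weakest peaks of replicate 3 few were shared at the locus: 0 of 9 in ranks 10001 to 20000, where the list has 37.4%, and 2 of 11 (18.2%) in ranks 20001 to 30000, where it has 29.6%. In replicate 1 the locus shares in these ranks were 55.6% of 9 peaks and 50% of 6, where the list has 34.5% and 28.4%. Outside the IDR peaks, 12 overlapping pairs were found. Ordered by the worse of its ranks in the replicates, the first pair was in an ush intron from 493066 to 493624, 17.1 kb past the first start site, with 15.4 at rank 5131 in replicate 1 and 37.5 at rank 2631 in replicate 3. A pair from 488122 to 488717 ranked higher in replicate 1, with 20.8 at rank 2997, and far lower in replicate 3, with 11.3 at rank 24007.

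Set against other genes, ush was near the top of the range in number of summits, and cbt, like most genes, had 0. At least 1 IDR summit in the gene body was found in 7.64% of protein-coding genes, and at least 9 in 0.0215%, which is 3 genes, ush included. Counts were also taken among long genes. Of the 203 genes at least as long as ush, 109 had 0 summits and the median was 0, while 2 of them, 0.985%, had 9 or more. With the 10 kb flanks, ush had 13 IDR peaks and cbt 7, of which 3 were in ush and 4 at CG4297 and MED15. Only 0.0143% of genes, ush and CG1677, reached 13 in that window. The span held 15.4 IDR peaks per 100 kb, and the chromosome arms together 2.05 per 100 kb.

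**Figure D3:**
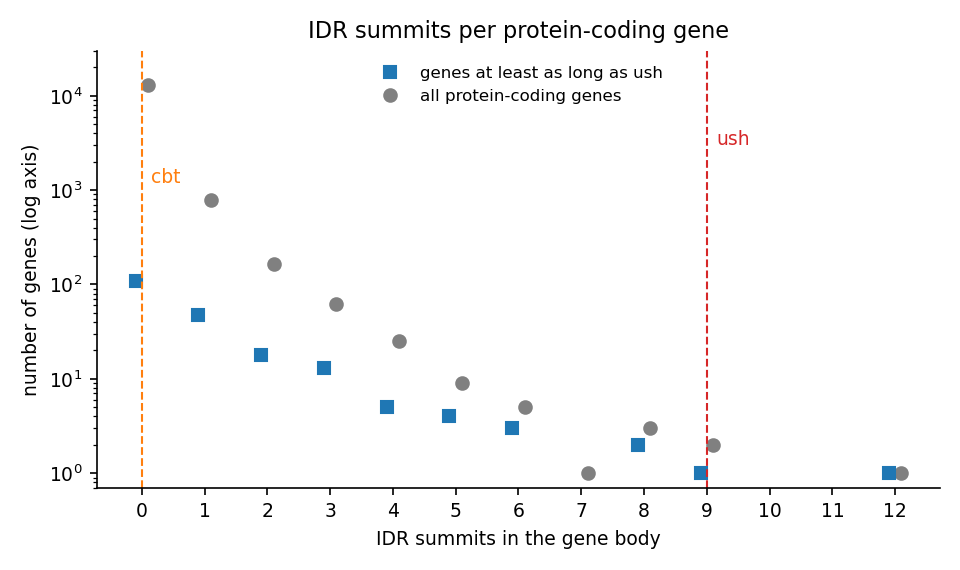
Number of genes (log axis) by number of IDR summits in the gene body, for genes at least as long as ush (squares) and for all protein-coding genes (circles). The dashed lines mark ush at 9 and cbt at 0, and a single gene, CG1677, has more summits than ush, at 12.

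The genes most like ush, by closest number of IDR summits in the body and then by closest highest signal value, were Raf, sbb and Hr4. Raf, a kinase of receptor tyrosine kinase signalling, had 9 summits in 48.4 kb on chromosome X. The co-repressor gene sbb had 8 in 79.1 kb on chromosome 2R, and the nuclear receptor gene Hr4 had 8 in 66.0 kb on chromosome X. In all 3 genes 0 of the summits were within 500 bp of a start site, and in ush 1 of 9 was, the one upstream of cbt. The best IDR rank was 2 in ush, and it was 73 in Raf, 194 in sbb and 281 in Hr4. The median signal value over all summits in the gene, in ush the strongest included, was 115.5 in ush, 126.7 in Raf, 101.2 in sbb and 89.6 in Hr4. Signal value took part in the choice of these genes, so their ranks and medians are a description.

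Among the 852 IDR peaks in introns and over 500 bp from any start site, the one between cbt and the second ush start site was the strongest. The next were in CG11050 (signal value 734.1), in the overlapping genes HmgD and HmgZ (704.6), in Lk6 (675.3) and in CG32772 (649.8). All 5 were within 1380 bp of a start site. Their summit windows were also AT-rich, with a GC content of 27.7% in the ush window and from 24.8 to 31.7% in the other windows. Over its whole width the ush peak had a GC content of 46.0%, so it was AT-rich near the summit only. The whole width of the other peaks was not examined.

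The summits of the locus shared a low GC content, as did those of the whole list. The median GC content within 50 bp of the summit was 30.7% at the 13 locus summits and 30.7% at all IDR summits, with 45.1% over the ush gene. In 11 of the 13 windows the GC content was below that of the gene, as was the upper quartile of all IDR windows, 37.6%. The exceptions were the exonic peak (48.5%) and the peak 34.5 kb into ush (50.5%), whose sequence printed above carries a long CT repeat.

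**Figure D4:**
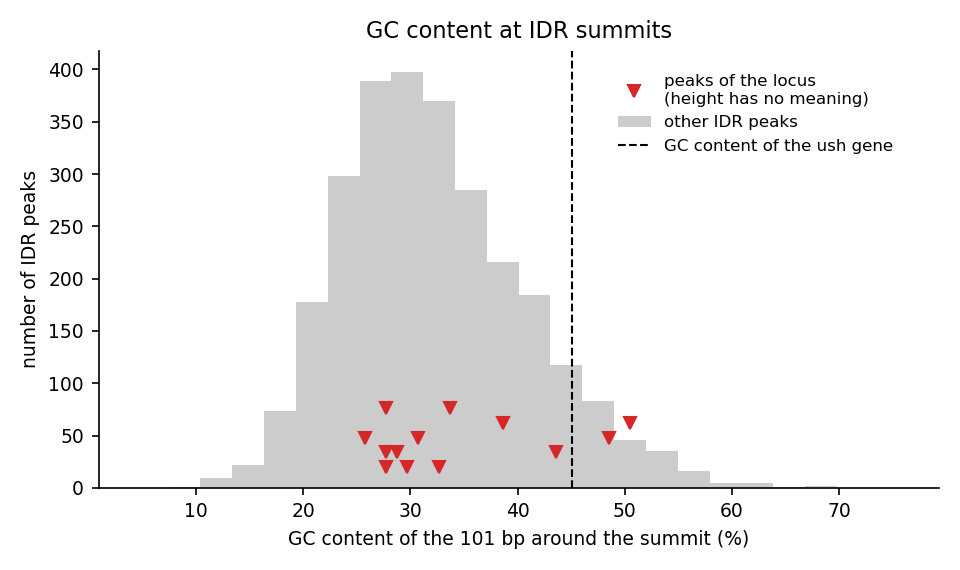
GC content within 50 bp of the summit, in percent, for the peaks of the locus (red triangles, each 1 peak) and for the other IDR peaks (grey histogram, number of peaks), with the GC content of the ush gene as a dashed line. The locus windows run from 25.7 to 50.5%, and 11 of 13 lie left of the line.

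E-boxes, the sequence class that cato's family binds, were searched within 50 bp of the summits. Matches to CANNTG were in 3 of the 13 windows, and 32.7% of all IDR windows held one. The matches were of the class CACCTG, on either strand, in the peak upstream of cbt and in the peak 34.5 kb into ush, and of the class CATATG in the peak 45.9 kb into ush. These classes were in 2.11% and 4.12% of all IDR windows. The window of the strongest peak held 0 E-boxes, as its printed sequence shows, and the peak as a whole, at 359 bp, held 2. Over whole peaks 12 of the 13 locus peaks had an E-box, as had 82.7% of all IDR peaks.

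GATA sites, searched as AGATAA or AGATAG or TGATAA or TGATAG on both strands, were in 4 of the 13 windows, and 21.2% of all IDR windows held one. They were in a CG4297 peak and in the ush peaks 34.5, 44.6 and 45.9 kb into the gene. The windows of the pair upstream of cbt held 0. Over whole peaks 9 of the 13 locus peaks had a GATA site, as had 55.8% of all IDR peaks. Both the DREF site TATCGATA and the BEAF site CGATAG, which share letters and were in 1.57% and 3.86% of all IDR windows, were in 0 of the 13. The GAGA site GAGAG was in 3 windows (8.23% of all), among them the one with the CT repeat, and the Zelda site CAGGTA in 1 (1.49% of all). The repeat CACACA (5.9% of all), the AP-1 site TGACTCA or TGAGTCA (0.91%) and the Sp and KLF type box GGGCGG or GGGTGG (2.62%), the kind of site that proteins related to cbt bind, were in 0 of the 13 windows. Over whole peaks the GAGA site was in 9 of the 13 (42.4% of all IDR peaks) and CACACA in 5 (30%). The Sp and KLF type box was in 1 (18.3%), as were the BEAF site (15.9%) and the Zelda site (7.94%). The DREF site (6.26%) and the AP-1 site (3.53%) were in 0. In 7 of the 13 windows, that of the strongest peak included, 0 of the 9 patterns searched were found. The share of all IDR windows without any of them was not computed, so the 7 cannot be set against the list. A match is a description of the letters and says nothing of which protein was bound.

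Genes that act with ush or cbt were counted from short lists, on which no test was run. Of 10 GATA factors and partners of ush, 0 had an IDR summit in the gene or within 500 bp of a start site, a criterion met by 17.4% of all protein-coding genes. The list holds pnr and srp, the GATA factor genes whose products bind the ush protein, with grn, GATAd and GATAe, the co-factor genes CtBP and Chi and the blood or glial cell regulators lz, gcm and gcm2. Of the 6 prepattern and proneural genes ac, sc, ara, caup, mirr and wg, which act with or downstream of Pannier in bristle patterning, 0 had one as well.

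Of 10 genes tied to sugar sensing or to JNK signalling in dorsal closure, where cbt acts, 5 had an IDR summit by the same criterion. Of all protein-coding genes 17.4% met it. The strongest were at puc, the JNK phosphatase gene, with 4 summits and a highest signal value of 125.8, and at dpp, the BMP ligand gene that JNK signalling induces, with 1 summit at 117.4. The BMP receptor gene tkv had 3 summits (highest 80.7), the Mlx-type factor gene bigmax 1 (71.2) and the Fos gene kay 1 (70.9). At puc the best peak ranked 1373 in replicate 1 and 1227 in replicate 3, and bigmax ranked 8711 in replicate 1 and 1957 in replicate 3. The genes with none were Mondo, sug, bsk, hep and Jra. Gene length was not taken into account. Of the listed genes with a summit, puc, kay, dpp and tkv were 17.0, 28.1, 31.5 and 52.4 kb long, and bigmax 1.16 kb. Those with none were mostly shorter: Jra 2.08, bsk 3, sug 6.08, hep 11.2 and Mondo 24.0 kb. The share of all genes was not matched for length, so the 5 of 10 cannot be read as a trait of these pathways. Of the 7 KLF and Sp type zinc finger genes related to cbt, 2 had IDR summits, against the same 17.4% of all genes. These were dar1 (27.1 kb, 2 summits, highest 124.2) and luna (138.4 kb, 3 summits, highest 79.4). Klf15, Sp1, btd, hkb and CG42741, which were 1.03 to 31.9 kb long, had none.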

How the data were processed

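ChIP-seq peaks of cato-GFP were analysed in 2 biological replicates of 1 condition. Per the text lists deposited with each library, the authors made a list of peaks and background for each replicate from its alignments and 1 further file, a pooled list, and a thresholded optimal IDR list derived from these. Although the IDR list is said to derive from the pooled list, 0 of its 2746 dm6 peaks are rows of the dm6 pooled list. The signal value per peak is as the authors deposited it, in the units of the software that called the peaks, and was used only within a list. The caller, the aligner and the depth were not given in the sources used here. No counting error could therefore be computed. The dm3 lists were not used, and coordinates were not converted.

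Positions are 1-based on dm6. Genes came from Ensembl release 115 (annotation 6.54) and bases from RefSeq; 0 peaks ran past the end of a chromosome arm. Rank 1 is the highest signal value. Peaks were matched across lists by an overlap of at least 1 bp, taking the strongest, and counted in genes by summit. Nested and overlapping genes share summits. Motifs were searched on both strands of the summit with 50 bp on either side. The counting and motif steps were tested on simulated data. Calculations used Python 3.11.15, numpy 2.4.6, scipy 1.17.1 and matplotlib 3.10.9.

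The members, the 4 gene lists and the settings were chosen with earlier results of these data known. Named genes are those overlapping the span, the listed genes, the 3 genes most like ush and the hosts of the 5 strongest intronic peaks over 500 bp from a start site; CG1677 was named after its count was seen. No test was run, because the peaks chose the locus. Alternatives varied the flank, list, overlap rule, rank limit, start site distance and window, and left out each replicate.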

Additional observations from a re-analysis of the deposited data

How the results depend on the processing

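Of 37 alternatives to 9 results, 23 stayed within 1.5 times the count, within the 95% Wilson interval of the share or within the spread between replicates. To leave a replicate out, peaks were counted among the 2746 strongest of the other replicate, not in a new IDR list. The locus then held 10 to 13 and ush 7 to 9. Genes with at least as many summits as ush made up 0.0286 to 0.0644% (4 and 9 genes). Motifs and GC content were instead taken at the other replicate's summits for the same 13 IDR peaks. There 2 to 3 windows held an E-box, 2 to 4 a GATA site (2 without replicate 1), and the median GC content was 30.7 to 33.7%. Among the 1373 strongest IDR peaks 7 were at the locus. By summits per 10 kb among genes of at least 10 kb, 2.57% (51 genes) reached ush. Within rank 1373, 5 locus peaks were among the strongest of both replicates. Summits near a start site numbered 1 within 250 bp and 5 within 1000 bp. E-boxes were in 1, 5 and 12 and GATA sites in 2, 6 and 9 locus peaks within 25 bp, within 100 bp and over the whole peak, where all IDR windows of the first 2 sizes gave 16.9% and 57.5% for E-boxes and 11.5% and 37.4% for GATA sites, and whole IDR peaks 82.7% and 55.8%. The median GC content was 36.3% within 100 bp. Wider or narrower windows hold more or fewer matches by construction; the cause of the other shifts was not tested. Read depth is unknown, so a peak missing from a list does not show that binding is absent.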
